A study of Mus musculus with 15 samples.

Results

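The 9 genes described here are a set of B cell and antigen presentation genes, listed by symbol and taken by Ensembl identifier from the 15 deposited tables of the mouse large intestine, where 44049 genes had a value in at least 1 library. 4 of them belong to MHC class II (Cd74, H2-Aa, H2-Ab1 and H2-Eb1) and 5 to the B cell lineage (Pax5, Cd79a, Cd79b, Ms4a1 and Fcer2a). The study asked what cymopol, a compound of a marine green alga, and a non-polar algal extract do to intestinal RNA after oral dosing. All animals were male C57Bl/6 mice, 4 weeks old, gavaged on 3 consecutive days, with tissue taken 12 h after the last dose. The vehicle, given alone to the control group and labelled as Chremophor EL with 10% DMSO, stands for 3 libraries (replicates 2, 4 and 5). Cymopol was given at a low dose of 0.3 mmol/kg (replicates 33, 34 and 35) and a high dose of 1.4 mmol/kg (replicates 11, 12 and 14). The extract was given at a low dose of 0.3 g/kg (replicates 26, 27 and 29) and a high dose of 1.0 g/kg (replicates 21, 23 and 25). The doses of the agents are in different units and are not matched. The labels do not say that libraries came from separate mice, so every p-value below measures the spread between libraries, which may be technical.

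MHC class II molecules are pairs of an alpha and a beta chain that show peptides from engulfed proteins to CD4+ T cells. The invariant chain, encoded by Cd74, guides the new pairs to the compartment where peptides are loaded, and the transactivator encoded by Ciita switches the class II genes on in B cells, dendritic cells and activated macrophages. B cells of the gut gather in the follicles of lymphoid patches and in scattered isolated follicles. The RNA of a piece of colon therefore holds B cell transcripts when the piece includes such tissue. In bulk tissue, fewer cells of a type and less RNA per cell cannot be told apart.

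Some of the promoters of these genes hold a sequence feature that the list did not use. The Y box, here the letters CTGATTGG, holds the inverted CCAAT element of class II promoters, which the factor NF-Y is known to bind. Promoters from RefSeq (assembly GRCm38.p6, 250 bases before to 50 bases after the start of the gene) were at hand for 5 of the 9 genes, and both strands were searched. These letters were found in 3 of the 7 promoters listed for those 5 genes, each of a different gene, and in 4.1% of the 32851 promoters of the table. A match is a description of the letters and not evidence of binding. The 3 promoters are shown because they hold these letters, and the capitals mark the Y box letters. They lie at chr17:34287774-34288073 (minus strand, H2-Aa), chr17:34305617-34305916 (plus strand, H2-Eb1) and chr8:3694125-3694424 (minus strand, Fcer2a).
H2-Aa: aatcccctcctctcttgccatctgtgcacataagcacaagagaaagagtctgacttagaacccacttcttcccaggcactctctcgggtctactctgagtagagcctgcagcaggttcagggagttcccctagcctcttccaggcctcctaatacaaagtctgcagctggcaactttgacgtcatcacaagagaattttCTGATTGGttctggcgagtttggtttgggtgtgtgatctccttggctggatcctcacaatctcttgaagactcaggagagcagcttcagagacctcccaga
H2-Eb1: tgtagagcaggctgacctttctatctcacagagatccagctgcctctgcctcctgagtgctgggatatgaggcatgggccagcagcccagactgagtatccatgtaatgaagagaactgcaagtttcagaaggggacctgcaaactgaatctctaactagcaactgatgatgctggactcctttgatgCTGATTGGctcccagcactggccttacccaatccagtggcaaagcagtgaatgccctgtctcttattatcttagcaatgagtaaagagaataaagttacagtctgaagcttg
Fcer2a: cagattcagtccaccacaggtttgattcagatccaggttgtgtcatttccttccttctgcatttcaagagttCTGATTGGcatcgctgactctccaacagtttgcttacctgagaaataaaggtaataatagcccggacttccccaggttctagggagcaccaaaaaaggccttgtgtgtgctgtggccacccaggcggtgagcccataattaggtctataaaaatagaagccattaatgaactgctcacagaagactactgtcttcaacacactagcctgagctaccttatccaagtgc
The match begins 51 bases before the start of H2-Aa and 62 bases before that of H2-Eb1. In Fcer2a, which is no class II gene, it begins 178 bases before the start.

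The libraries were unequal, and shallow by an estimate that can lie below the fragments sequenced. Fragments in protein-coding genes, estimated from the width of the deposited FPKM intervals, ranged from 25114 in vehicle replicate 5 to 556039 in extract high dose replicate 23, with 226425 in vehicle replicate 4. 3 libraries stood apart, with over 20% of their fragments in intergenic loci (extract low dose replicate 26 with 25.6%, and vehicle replicates 2 and 5 with 47.4% and 27.0%). Vehicle replicate 4 differed in another way, with 36.8% of its fragments in genes and 5.59% in intergenic loci. Besides vehicle replicate 2 (9.44%) and extract low dose replicate 26 (34.9%), the other 12 libraries had 47.0% to 73.5% in genes. Vehicle replicate 4 also had the lowest weight of the 15 libraries, 0.324, when limma estimated array weights from all genes. The share of tested genes listed at 0 ran from 5.75% to 56.4% of a library. Of the 135 values of the 9 genes (FPKM, fragments scaled by transcript length and by the size of the library), 64 were listed at 0, and 14 of the 71 above 0 rested on an estimate under 0.99 fragments. A value of 0 is the estimate for the gene locus, which does not mean that no read fell inside the gene. H2-Ab1, for example, was listed at 0 in vehicle replicate 2, where 2 assembled loci inside it but outside its exons held an estimated 59.9 and 16.0 fragments.

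All 9 genes had their highest value in vehicle replicate 4, whereas 19.6% of the 11505 genes tested were highest in that library. For 8 of the 9 (6 of the 7 that passed the filter on low values) it held over 50% of the FPKM summed over the 15 libraries, and the share of tested genes above that limit was 4.24%. H2-Ab1, at 36.8%, was the exception. The other vehicle libraries were low, with 7 of the 9 genes listed at 0 in replicate 2 and 4 in replicate 5.

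Cd74, the invariant chain, had an FPKM of 1.02, 325 and 7.36 in the vehicle libraries (replicates 2, 4 and 5). It stood at 10.0, 18.3 and 14.5 in the low cymopol group and at 4.85, 54.0 and 14.4 in the high one. With the extract it was 0, 0.62 and 12.2 at the low dose and 2.74, 13.4 and 4.10 at the high dose. Vehicle replicate 4 was 6.03 times the next library, cymopol high dose replicate 12, and its deposited interval, from 297 to 353, lay above that of every other library. The treated libraries lay within the range of the vehicle group, apart from extract low dose replicates 26 and 27, which lay below it. Many of the smaller values are imprecise, since 8 of the 14 libraries above 0 had an estimate under 0.99 fragments.

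H2-Aa encodes the alpha chain of the class II molecule I-A, at chr17:34282744-34287823 (GRCm38, GENCODE M21 gene model). Its FPKM was 0, 166 and 10.7 with the vehicle, 6.24, 14.8 and 5.56 with low cymopol and 6.82, 31.8 and 15.8 with high cymopol. The extract libraries had 0, 3.75 and 10.3 at the low dose and 0, 14.8 and 4.24 at the high dose. H2-Aa was thus above 0 in every cymopol library, while the vehicle and both extract groups each held a library at 0. The 0 of the vehicle and that of the high extract group were the only 2 values from annotated gene entries. The other 13 came from assembled loci. The 0 of the low extract group lay in a library where all 9 genes were at 0. The low cymopol values rested on an estimated 2.18, 7.20 and 8.15 fragments, the first with an interval from 0 to 14.7. The contrast between the groups is therefore not resolved.

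H2-Ab1, the beta chain that pairs with H2-Aa (chr17:34257689-34269419), was the member least concentrated in 1 library. Vehicle values were 0, 60.9 and 17.5, low cymopol values 9.30, 0 and 3.09, and high cymopol values 5.42, 31.6 and 5.50. Extract values were 0, 0.45 and 19.9 at the low dose and 2.53, 8.75 and 0.34 at the high dose. Vehicle replicate 4 was 1.93 times cymopol high dose replicate 12, and all groups overlapped. H2-Eb1 encodes the beta chain of I-E (chr17:34305867-34316674), a molecule that C57Bl/6 mice do not show on their cells because its alpha chain is not made. Its FPKM was 0, 54.0 and 1.66 with the vehicle, 0, 6.86 and 2.39 with low cymopol, 0.79, 7.0 and 3.59 with high cymopol, 0, 1.53 and 0.71 with low extract and 0.65, 8.08 and 0.72 with high extract. Outside vehicle replicate 4 no library passed 8.08.

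Pax5 is the transcription factor that commits cells to the B lineage and holds them there (chr4:44524757-44710487). It was at 0, 60.3 and 0.41 in the vehicle libraries, at 14.6, 0 and 0 with low cymopol and at 0, 6.79 and 0 with high cymopol. The low extract group had 0, 0.06 and 0, and all 3 high extract libraries were at 0. It was the only member for which another library's deposited interval reached that of vehicle replicate 4, namely the interval of vehicle replicate 5, from 0 to 47.2.

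Cd79a and Cd79b encode the pair of chains that carry the signal of the B cell receptor. Cd79a (chr7:24897381-24902197) had an FPKM of 0, 35.4 and 0 with the vehicle. Above 0 elsewhere were cymopol low dose replicate 33 with 7.50, cymopol high dose replicate 12 with 3.24 and extract high dose replicate 23 with 0.894. Cd79b (chr11:106311341-106314762) had 0, 111 and 0 with the vehicle, and outside that group it was above 0 in extract high dose replicate 23, at 1.22, and in cymopol high dose replicate 12, at 0.298. Each of these receptor genes was therefore listed at 0 in 11 and 12 of the 15 libraries, respectively.

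Ms4a1 encodes CD20, a surface protein of mature B cells (chr19:11249675-11266241). It had an FPKM of 0, 16.9 and 0 with the vehicle, 0.12 in extract low dose replicate 27 and 0.639 in extract high dose replicate 23, and it was listed at 0 in the other 10 libraries. Fcer2a, the low-affinity IgE receptor CD23 of follicular B cells (chr8:3681737-3694175), had 1.05, 179 and 0 with the vehicle. Low cymopol gave 1.13, 0 and 0, high cymopol 0, 2.08 and 0, and high extract 0, 0.352 and 0.171, and Fcer2a was listed at 0 in all 3 low extract libraries. Its 3 highest values, 179, 2.08 and 1.13, were the only 3 that came from assembled loci. The other 12 came from annotated gene entries and were at most 1.05, so the level of Fcer2a cannot be told apart from the source of the value. Vehicle replicate 4 was 86.0 times the next library for Fcer2a, 91.2 times for Cd79b and 26.4 times for Ms4a1. These 3 genes had 97.4%, 98.7% and 95.7% of their summed FPKM in that library. Estimated fragments there were 234 for Fcer2a, 225 for Cd79b and 94.4 for Ms4a1, so their values in it do not rest on a handful of fragments.

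**Figure D1:**
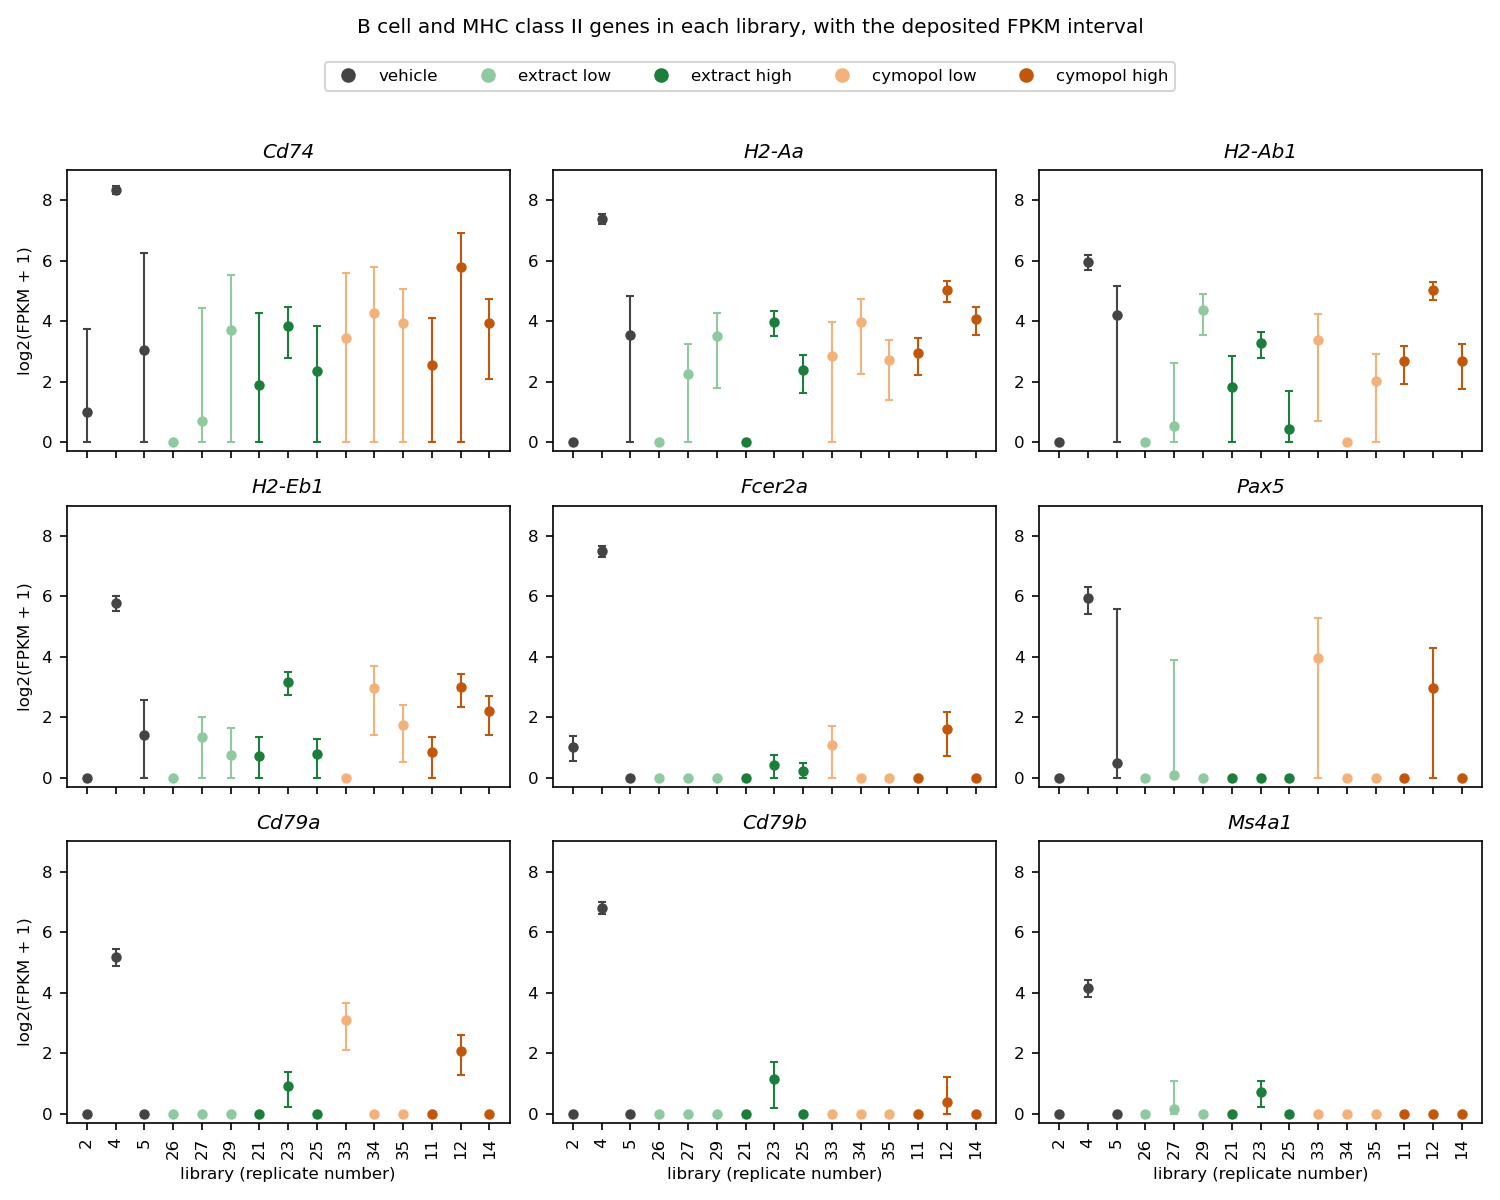
FPKM of the 9 genes in each of the 15 libraries, as log2(FPKM + 1), with 1 point for each library, coloured by group, and bars for the lower and upper bound of the deposited interval. Vehicle replicate 4 is the highest point in all 9 panels, and the B cell genes are at 0 in most other libraries.

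The class II genes and the B cell genes did not spread over the libraries in the same way. Summed over the 4 class II genes, the FPKM was 606 in vehicle replicate 4, 124 in cymopol high dose replicate 12, 45.0 in extract high dose replicate 23 and 43.1 in extract low dose replicate 29. Summed over the 5 B cell genes it was 402, 12.4, 3.10 and 0 in the same libraries. Cymopol low dose replicate 33 had sums of 25.6 and 23.3, but its Pax5 value of 14.6 rested on an estimated 1.52 fragments (interval from 0 to 38.4) and its Cd74 value on 0.292, so the order of the sums there is not resolved. At least 1 class II gene was above 0 in 14 of the 15 libraries, the exception being extract low dose replicate 26, where all 9 genes were at 0. All 5 B cell genes were above 0 in vehicle replicate 4, 4 of them in cymopol high dose replicate 12 and extract high dose replicate 23, and 0 of them in 7 libraries.

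The groups were compared with limma on log2(FPKM + 1), with 1 mean for each group and p-values adjusted by the Benjamini-Hochberg method over the 11505 genes tested. Cd79b and Ms4a1 did not reach an FPKM of 1 in 3 libraries and were not tested. The F test for any difference among the 5 groups called 0 of the 7 genes at an adjusted p under 0.05 (0.0261% of all genes were called). At an unadjusted p under 0.05 it also picked 0 of the 7, against 7.26% of all genes. Fcer2a came nearest, with an adjusted p of 0.705 in limma's F test.

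Against the vehicle, the 7 genes had a median log2 difference of -1.52 at the high extract dose, and 7 of 7 lay below 0, against 22.6% of all genes. None was called (0.00869% of all genes were), 1 had an unadjusted p under 0.05 on the lower side (1.02% of all genes did), and 0 had groups without overlap on that side (0.452%). The median over all genes was 0.71. At the low extract dose the median was -1.74, with 7 of 7 below 0 against 55.4% of all genes, whose median was -0.14. Again 0 were called (0% of all genes), 1 had an unadjusted p under 0.05 on the lower side (2.81%), and 0 had groups without overlap (1.43%).

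At the high cymopol dose the median of the 7 genes was -0.38, and 2 of 7 lay above 0, against 79.5% of all genes, whose median was 0.81. Those above were H2-Aa (0.38) and H2-Ab1 (0.08), and H2-Ab1 lay below 0, at -0.20, when libraries were scaled by the median of ratios. 0 were called (0.0174% of all genes), 1 had an unadjusted p under 0.05 on the lower side (0.756%), and 0 had groups without overlap (0.365%). At the low cymopol dose the median was -0.82, with 7 of 7 below 0 against 39.0% of all genes, whose median was 0.23. Here too 0 were called (0% of all genes), 1 had an unadjusted p under 0.05 on the lower side (1.79%), and 0 had groups without overlap (0.834%). The direction with cymopol moved with the settings. Under array weights 3 of 7 lay above 0 at each cymopol dose, with medians of -0.14 (high) and -0.12 (low). With a pseudocount of 0.1, 4 of 7 lay above 0 at the high dose (median 0.17) and 1 of 7 at the low dose. At both extract doses 7 of 7 stayed below 0 in these 2 settings.

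The gene with the unadjusted p under 0.05 was Fcer2a in all 4 comparisons, which share the 3 vehicle libraries. Its log2 difference was -2.62 ± 1.04 (SE) at the high extract dose, with an adjusted p of 0.366 in limma. The other values were -2.84 at the low extract dose (adjusted p = 1), -2.30 at the high cymopol dose (adjusted p = 0.350) and -2.48 at the low cymopol dose (adjusted p = 0.799), each with the same SE. All of these rest on 1 library, because the vehicle values of Fcer2a other than 179 were 1.05 and 0. Pax5 had differences of -2.14 and -2.12 at the high and low extract doses and -1.16 and -0.82 at the high and low cymopol doses. Cd74 differed by -2.67 ± 1.40 (SE) at the low extract dose, where limma's adjusted p was 1, and by -1.44, -0.05 and -0.25 at the high extract, high cymopol and low cymopol doses.

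Without vehicle replicate 4, the median over the 7 genes became 0.31 at the high extract dose, -0.22 at the low extract dose, 1.31 at the high cymopol dose and 1.03 at the low cymopol dose. The medians over all genes were then 1.09, 0.23, 1.20 and 0.60 in the same order. Above 0 lay 4, 1, 7 and 5 of the 7 genes, against 85.9%, 60.1%, 86.8% and 73.3% of all genes, so most genes lay above 0 in that fit, with 0 members called. Fcer2a then lay between -0.52 and 0.02 in the 4 comparisons. Cd74 turned from -0.05 to 2.05 at the high cymopol dose and from -0.25 to 1.86 at the low one, and H2-Aa moved from 0.38 to 2.25 and from -0.46 to 1.41. The opposite move followed when the other 2 vehicle libraries and extract low dose replicate 26, the 3 with over 20% intergenic fragments, were left out, a setting chosen after seeing the data. Vehicle replicate 4 was then the only vehicle library and was assumed to vary like the other groups, and the medians were -5.26 and -5.18 at the high and low extract doses and -4.26 and -4.20 at the high and low cymopol doses. In that fit limma called 4, 4, 1 and 1 of the 7 genes at an adjusted p under 0.05, in the same order, against 1.79%, 2.18%, 1.41% and 3.04% of all genes.

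**Figure D2:**
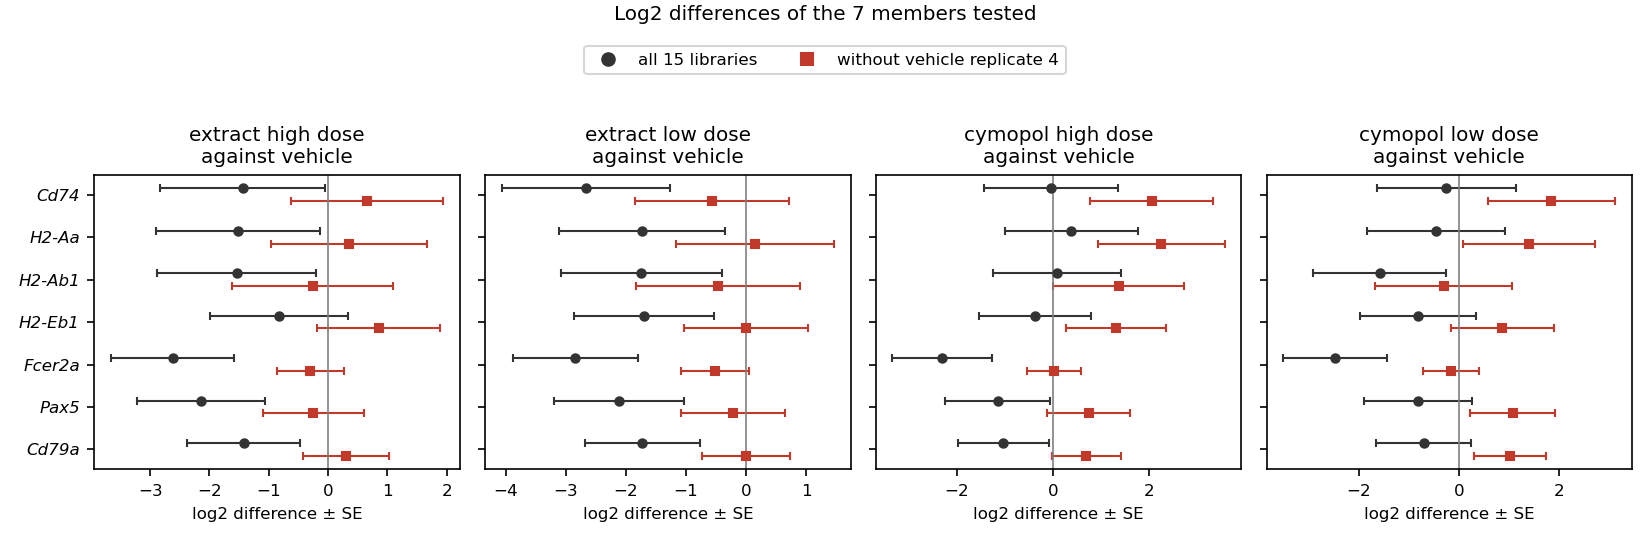
Differences of the 7 tested genes from the vehicle on the log2(FPKM + 1) scale, with bars of 1 standard error, in the fit with all 15 libraries (circles) and without vehicle replicate 4 (squares). Without that library Fcer2a lies near 0 in the comparisons with cymopol, and Cd74 and H2-Aa lie above 0 there.

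The remaining comparisons do not use the vehicle libraries except through the shared spread. Between the extract doses (high minus low) the median of the 7 genes was 0.22 and 6 of 7 lay above 0, against 88.0% of all genes, with 0 called (0.00869%) and 0 at an unadjusted p under 0.05 (7.29%). Between the cymopol doses it was 0.20 with 5 of 7 above 0, against 76.8%, and again 0 were called (0.00869%) and 0 had an unadjusted p under 0.05 (5.84%). At the high doses all 7 genes were higher with cymopol than with the extract by value, with a median of 0.99, against 57.4% of all genes and a median of 0.11, and 0 were called (0.0174%) or had an unadjusted p under 0.05 (1.73%). At the low doses the same 7 of 7 were above 0, against 68.7%, with a median of 1.03 beside 0.39 over all genes, 0 called (0%) and 0 at an unadjusted p under 0.05 (3.38%). H2-Aa had the largest of the high dose differences, 1.90 ± 1.38 (SE), and Cd74 the largest of the low dose ones, 2.42 ± 1.40 (SE), each with an adjusted p of 1 in limma. Each of these 4 medians moved with single libraries. Leaving out each library in turn moved the median between the extract doses from 0 (without extract high dose replicate 23) to 0.89, and that between the cymopol doses from -0.36 (without cymopol high dose replicate 12) to 0.97 (without cymopol high dose replicate 11). The median of cymopol against the extract ran from 0 (without cymopol high dose replicate 12) to 1.48 at the high doses, and from 0 (without cymopol low dose replicate 33) to 1.5 at the low doses. Whether the dose effect differed between the agents was tested as an interaction, which called 0 of the 7 genes (0% of all genes) and had 0 at an unadjusted p under 0.05 (1.72%).

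Scaling the libraries by the median of ratios, which gave vehicle replicate 4 a size factor of 1.97 in a range from 0.0652 to 2.4, left it the highest library for all 9 genes. It moved the median over all genes from 0.71 to 0.25 at the high extract dose, from -0.14 to -0.01 at the low one, from 0.81 to 0.24 at the high cymopol dose and from 0.23 to 0 at the low one. The members' medians against the vehicle were then -1.54, -1.43, -1.0 and -0.63 in that order. Between the cymopol doses the median turned from 0.20 to -0.25 with scaling, and 4 of 7 genes lay below 0, and between the extract doses it was 0.13 with 3 of 7 below 0. Its lead over the next library shrank to 1.12 times for Pax5, 1.28 times for Cd79a and 12.8 times for Fcer2a, and was 7.35 times for Cd74 and 101 times for Cd79b.

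Other B cell genes had the same library at the top. Of 21 such genes with a value in all libraries, 19 were highest in vehicle replicate 4, whose sum of 394 FPKM was 57.5% of the total, and cymopol high dose replicate 12 followed with 86.7. Of the 10 tested, 0 were called against the vehicle in any of the 4 comparisons, and 8, 9, 8 and 7 lay below 0 at the high extract, low extract, high cymopol and low cymopol doses, with 1, 3, 0 and 1 at an unadjusted p under 0.05. Ighm, the heavy chain of IgM, had an FPKM of 163 in vehicle replicate 4 and at most 14.9 in the other 12 libraries with a value. Ciita, the transactivator of class II genes, was at 68.8 there and at most 1.84 elsewhere. Fcmr, a receptor for IgM, was at 36.6 there and at 29.9 in cymopol low dose replicate 33. Blnk, an adaptor of the B cell receptor, was spread more evenly, with 27.5 there and 23.2 in cymopol low dose replicate 34.

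A list of other class II genes, which also holds related genes such as Ciita, Ctss, Cd80 and Cd86, divided. Among 11 with a value in all libraries, 3 were highest in vehicle replicate 4, which held 34.8% of their sum. In every library 3 were at 0, namely H2-Oa, Cd80 and Cd86. H2-Ob was at 0 in the 12 libraries with a value, vehicle replicate 4 among them. H2-Eb2 was at 0 in vehicle replicate 4 and at most 0.355 elsewhere. Ciita, at 68.8 in vehicle replicate 4, is counted here and among the other B cell genes above. H2-DMb2 and H2-DMb1, chains of the molecule that loads peptides onto class II, had 97.2% and 69.4% of their summed FPKM in vehicle replicate 4. Ctss, the protease that trims the invariant chain and is also made by macrophages, was instead highest in cymopol high dose replicate 12 with 84.3, beside 82.4 in extract high dose replicate 23 and 79.3 in vehicle replicate 4. Of the 5 genes tested, 0 were called against the vehicle in any comparison, with 0, 1, 1 and 0 at an unadjusted p under 0.05 in the order above. Below 0 lay 1, 4, 1 and 3 of them, with medians of 1.05, -0.94, 1.38 and -0.03. The 9 genes of the MHC class I list summed to 510 FPKM in vehicle replicate 4 and to 455 in cymopol high dose replicate 12. In the former 4 of them were highest. Among those was Nlrc5, at 115 in vehicle replicate 4 (95.4% of its summed FPKM) and at 1.14 in cymopol high dose replicate 12. H2-K1, a class I heavy chain, was at 102 in vehicle replicate 4 and at 227 in extract high dose replicate 23.

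Markers of other cell types differed in how far they moved with the B cell genes. T cell genes did so, since vehicle replicate 4 held 64.8% of their sum (94.6 FPKM, against 13.0 in the next library), with Trbc2, a constant region of the T cell receptor, at 32.0 there. In that library, however, Trac and Cd8a were listed at 0 and Cd4 was at 0.135. Of the 15 T cell genes, 8 were highest in vehicle replicate 4. Macrophage and dendritic cell genes summed to 138 in vehicle replicate 4 and to 65.9 in cymopol high dose replicate 12, and 4 of 11 were highest in the former. Among these were Lyz2, the lysozyme of macrophages, which gave 87.3 of the 138, and C1qb at 35.2. C1qa, in contrast, was at 2.87 in vehicle replicate 4 and at 29.8 in cymopol low dose replicate 33. Cd14 was at 0 in vehicle replicate 4 and at 13.2 in cymopol low dose replicate 34. Plasma cell genes, which mark the antibody-secreting end of the lineage, had 8.10% of their sum in vehicle replicate 4, and 0 of the 7 with a value in all libraries were highest there. Xbp1 and Sdc1, a proteoglycan that epithelium also carries, made up most of that sum. The immunoglobulin genes of the list are outside it, since Igha had values in 11 libraries, the highest of them 8.25 in vehicle replicate 4, and Igkc had none in vehicle replicate 4. Xbp1, a transcription factor of secretory cells, stood at 26.3 in vehicle replicate 4 and at 27.5 in vehicle replicate 5. Lymphoid stroma genes had 10.0% of their sum in vehicle replicate 4, and 2 of 8 were highest there. One of these was Cxcl13, the chemokine that draws B cells into follicles, at 8.25 against 2.06 in the next library. Ltbr and Ccl21a, the genes of the list with the highest mean FPKM, were at 8.73 and 8.30 in vehicle replicate 4. Ltbr reached 46.0 in cymopol low dose replicate 34, and Ccl21a 17.8 in cymopol high dose replicate 12. Ccl19 and Madcam1 of that list were at 0 in every library. Colon epithelium markers, which check the labelled tissue, had 4.92% of their sum in vehicle replicate 4. They summed to 995 there and to between 384 and 2610 in the others, except vehicle replicate 2 with 90.2 and extract low dose replicate 26 with 69.1. The sum of the adipocyte markers was highest in vehicle replicate 4, at 400 beside 299 in cymopol high dose replicate 11. Cfd alone gave 239 of the 400, and 2 of the 8 genes were highest there. Fabp4, for example, was at 54.3 in vehicle replicate 4 and at 72.3 in cymopol low dose replicate 35. Smooth muscle markers summed to 867 in vehicle replicate 4 and to 1013 in cymopol high dose replicate 12. In none of these lists was a gene called against the vehicle by limma. At an unadjusted p under 0.05 there were 2, 3, 1 and 3 of the 5 T cell genes tested at the high extract, low extract, high cymopol and low cymopol doses. Over the remaining lists together that count was 1, 0, 3 and 4 of the 44 genes tested. The part of cell composition in the members' values was not tested.

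**Figure D3:**
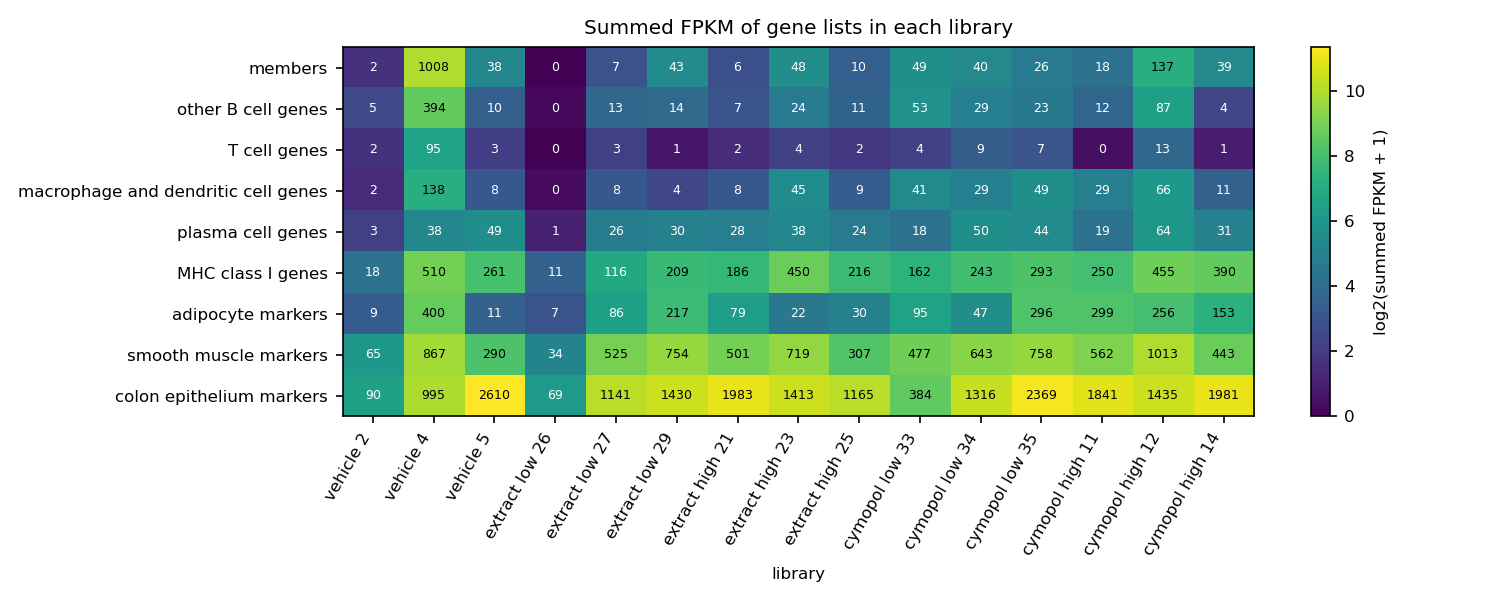
Summed FPKM of the 9 genes (members) and of 8 marker lists in each library, with the sum printed in each cell, rounded, and the colour on a log2(sum + 1) scale. Vehicle replicate 4 stands out for the members (1008), the other B cell genes (394) and the T cell genes (94.6), while its colon epithelium sum (995) lies within the range of the other libraries.

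The assembled loci inside Pax5 also set vehicle replicate 4 apart. Beside the value of the gene itself, that library had 31 loci that lay inside the gene, none sharing a base with an exon of Pax5. They were 93 to 396 bp long (median 209) and lay from 8.59 to 167 kb from the start of a gene that spans 186 kb. These loci held an estimated 1193 fragments, against 40.9 in the gene locus. Cymopol high dose replicate 12 had 3 such loci, 1 was found in each of vehicle replicate 2 and extract low dose replicate 26, and the other 11 libraries had 0. Over all genes a looser rule was used, with at least 0.8 of a locus over a gene and less than 0.8 over exons. By that rule vehicle replicate 4 had 16052 loci, but extract high dose replicate 23 had 23908 and vehicle replicate 2 had 17363, with 0 and 1 inside Pax5. Within vehicle replicate 4, 6301 genes had loci wholly inside them and less than 0.8 over exons, and 9 had more than Pax5. These counts were not corrected for gene length, so the long span of Pax5 may add to its rank. Pax5 overlaps the annotated genes Mir5120, Gm12462, 4930517J16Rik and 5730488B01Rik, and the strand setting of the quantification is not given in the sources used here, so that reads of overlapping genes cannot be told apart. The same holds for H2-Eb1 with Gm20513, Ms4a1 with 4930526L06Rik and Cd74 with Mir5107.

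**Figure D4:**
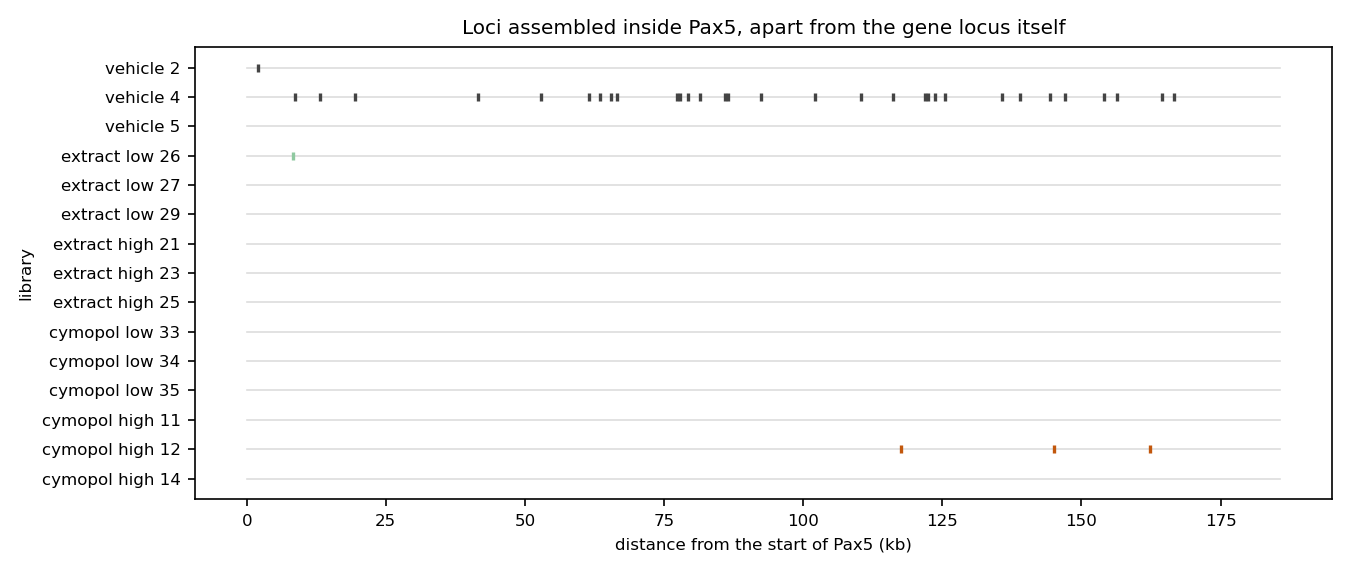
Loci assembled inside Pax5 apart from the gene locus itself, as ticks at their distance in kb from the start of the gene, with 1 line for each library. Vehicle replicate 4 has 31 ticks spread along the gene, cymopol high dose replicate 12 has 3, and there is 1 each for vehicle replicate 2 and for extract low dose replicate 26.

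The tested genes whose levels over the 15 libraries were most like the mean log2(FPKM + 1) of the 7 members were Syt1, Pou2f2, Lcp1, Bank1, Syk, Nup214, Ranbp3 and Ciz1. Their Pearson r ran from 0.936 for Syt1 to 0.908 for Ciz1, as a description over 15 libraries that differ in depth. Each was highest in vehicle replicate 4. The members' mean was 6.58 there and at most 3.64 elsewhere, so a choice by correlation with it favours genes that peak there. Pou2f2, an octamer-binding factor of B cells, had an FPKM of 31.0 there and at most 2.74 elsewhere, Bank1, a B cell scaffold protein, 30.5 and at most 2.28, and Syk, a kinase of the B cell receptor pathway, 95.9 and at most 7.25. Genes of the list that are given no B cell role here peaked in that library as well. Nup214 was at 55.1 in vehicle replicate 4 and at most 10.5 elsewhere, and Ciz1 at 158 and at most 28.3. The likeness was therefore not confined to B cell genes. Without vehicle replicate 4, r was 0.870 for Syt1, 0.799 for Pou2f2, 0.741 for Bank1 and 0.777 for Syk. It was 0.796 for Lcp1, 0.835 for Nup214, 0.743 for Ranbp3 and 0.788 for Ciz1.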

How the data were processed

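RNA of the mouse large intestine was measured in 15 libraries, 3 in each of 5 groups taken from the sample titles. Per the labels' protocols, 90 ng of total RNA was depleted of ribosomal RNA and made into libraries with a low-input kit, and the submitters' processing notes name the aligner STAR 2.4.0j and the build GRCm38.p4. The authors deposited 1 table of FPKM values with lower and upper bounds for each library. The columns, per the file headers, follow Cufflinks gene tracking; for the version, annotation release and strand setting the sources used here give nothing.

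Each table holds annotated genes and loci assembled separately in that library. An assembled locus was given to a gene without a value of its own when the pair were mutual best matches and overlapped over at least 0.5 of their joint span (GENCODE M21). Of the 135 values of the 9 genes, 72 came from assembled loci (all 15 of Cd74) and 63 from annotated identifiers. Fragments were estimated from the interval width, taking a bound as 2 SD of a Poisson count. Some estimates are too small to be counts, such as 7.82e-05 for Pax5 in extract low dose replicate 27. The intervals thus hold more than counting error. The estimates measure the precision of a value and can lie below the fragments sequenced.

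The 11505 genes with a value in every library, reaching an FPKM of 1 in 3 or more, were tested as log2(FPKM + 1), pseudocount 1, with limma 3.58.1 in R 4.3.3 (moderated variance, intensity trend, 5 group means, two-sided, adjusted p threshold 0.05). A fold on this scale understates the change of low genes. The fit was tested on simulated data. Alternatives were another pseudocount, no filter, median-of-ratios scaling, fitting 2 groups at a time, array weights, annotated identifiers only, exonic pieces added and each library left out. The 9 genes, the marker lists and the tests were chosen with earlier results of these data known. From each list up to 4 genes of the highest mean FPKM were to be named, and 8 genes by correlation with the members' mean. Named outside that rule, after their values were seen, were Igha, Trac, Cd8a, Cd4, Madcam1, Ccl19, Nlrc5, H2-Oa, H2-Ob, H2-Eb2, Cd80 and Cd86.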

Additional observations from a re-analysis of the deposited data

How the results depend on the processing

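Under 22 other settings, 7 of them other than leaving out a library, 0 members were called in all 197 counts made with limma, and the smallest adjusted p of a member was 0.133, at the low extract dose without vehicle replicate 5. With each library left out in turn, the median member log2 difference from the vehicle ran from -1.61 to 1.31 at the high cymopol dose, from -2.02 to 1.03 at the low cymopol dose, from -3.22 to 0.31 at the high extract dose and from -3.44 to -0.22 at the low extract dose. The lowest value came each time without vehicle replicate 2 and the highest without vehicle replicate 4. Without the 3 libraries over 20% intergenic, a setting chosen after seeing the data that leaves vehicle replicate 4 as the only vehicle library, these medians were -4.26, -4.20, -5.26 and -5.18 in the same order. Members called were then 1, 1, 4 and 4 in that order, and 1 in the F test. Over all genes, the comparisons with the vehicle called 0 to 2 genes, 0 to 9 under these settings and 162 to 350 without the 3 libraries; the F test called 3, with 12 under array weights and 64 without the 3 libraries. Without the filter on low values 21627 genes were tested, and Cd79b differed by -1.89 and Ms4a1 by -1.15 at the high extract dose, with limma's adjusted p at 0.559 for both. With annotated identifiers only, 1106 genes were tested, of the members only Cd79a. No paired analysis was possible because the groups share no replicate number. Of the 62 member values above 0 outside vehicle replicate 4, 45 rest on under 10 estimated fragments, although 5 libraries had more fragments in protein-coding genes than vehicle replicate 4.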
